A study of Penicillium oxalicum with 18 samples.

Results

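The 5 genes described here encode the main secreted cellulases of Penicillium oxalicum and an oxidative partner enzyme. They are the gene models PDE_07945 (Cel7A-2, cellobiohydrolase I), PDE_07124 (Cel6A, cellobiohydrolase II), PDE_07929 (Cel7B, an endoglucanase), PDE_09226 (Cel5B, an endoglucanase) and PDE_05633 (Cel61A, a lytic polysaccharide monooxygenase). They were chosen by locus tag, with the names used in the literature on strain 114-2. The rule used no values, but it was set with earlier results of these data known. All 5 were found among the 9176 gene models of the deposited table, and all 5 were among the 8455 that passed the filter on low values. The table itself pairs no locus tag with a gene name, so no further list of cellulase, transporter or regulator genes could be drawn up around them.

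Penicillium oxalicum is a filamentous fungus that degrades plant cell walls with secreted enzymes. Cellobiohydrolases work along a cellulose chain from its ends and release the disaccharide cellobiose, endoglucanases cut within the chain and open new ends, and lytic polysaccharide monooxygenases cleave chains oxidatively on crystalline surfaces. In filamentous fungi such genes are typically transcribed at a low level on glucose and induced on cellulose. Vib1 is a transcription factor known from Neurospora crassa, where it acts in heterokaryon incompatibility and in the response to cellulose.

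Mycelium of the wild type, strain 114-2, and of a vib1 deletion strain was first grown for 24 h at 30 °C with 2% glucose. It was then transferred for 24 h to medium whose carbon source was 2% glucose, 2% N-acetylglucosamine (GlcNAc, the monomer of chitin), or 1% bran with 1% microcrystalline cellulose. The last medium is called bran plus cellulose below. The growth protocol leaves out the GlcNAc medium, which is named in the design text and in the labels of its samples. This gave 6 groups of 3 libraries, 18 in all. The sources used here do not say how the deletion was made or how many clones it rests on. The locus tag of vib1 is not paired with its name in the files either, so the strain labels have no check from the deleted gene. Whether the replicates were separate cultures is not said in the labels. The p-values therefore measure only how far these libraries spread, which may be technical. RNA came from whole mycelium, in which fewer expressing cells and less RNA per cell cannot be told apart.

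Values are the deposited FPKM, a unit in which fragments are scaled to gene length and to the number mapped. The FPKM of all gene models summed to between 915811 and 1119469 per library, and 713 to 860 gene models per library were listed at 0. The number of reads behind each value is unknown, so no counting interval is given. Differences are on the scale of log2(FPKM + 1), which understates the change of low genes, and come from one limma model of all 18 libraries with Benjamini-Hochberg adjustment over the 8455 gene models. A difference was called at an adjusted p under 0.05.

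Cel7A-2, the exo-acting cellobiohydrolase that proceeds from the reducing chain end, was low on both sugars and very high on bran plus cellulose. In the wild type its 3 libraries held 6.99, 7.84 and 6.55 FPKM in glucose, 4.90, 5.10 and 4.72 FPKM in GlcNAc, and 1683, 1515 and 2207 FPKM in bran plus cellulose. Those of the deletion strain held 25.2, 34.2 and 45.9 FPKM in glucose, 9.42, 10.35 and 10.53 FPKM in GlcNAc, and 3203, 3034 and 3261 FPKM in bran plus cellulose. The 6 groups did not overlap. From low to high their order was wild type in GlcNAc, wild type in glucose, deletion in GlcNAc, deletion in glucose, then wild type and deletion in bran plus cellulose.

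Cel6A, the cellobiohydrolase that works from the non-reducing end, had a mean FPKM close to that of Cel7A-2 in the wild type on bran plus cellulose but stood in a different order on the sugars. Its wild-type libraries held 7.85, 7.65 and 6.33 FPKM in glucose, 3.71, 3.85 and 3.02 FPKM in GlcNAc, and 1806, 1498 and 2227 FPKM in bran plus cellulose. The deletion libraries held 9.06, 10.5 and 10.37 FPKM in glucose, 17.28, 16.88 and 20.99 FPKM in GlcNAc, and 2707, 2531 and 2720 FPKM in bran plus cellulose. Again no pair of neighbouring groups overlapped. In the deletion strain the GlcNAc libraries lay above the glucose libraries for Cel6A and below them for Cel7A-2.

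Cel7B, an endoglucanase of the same enzyme family as Cel7A-2, had the lowest bran plus cellulose level of the 5 genes on the FPKM scale. The wild type held 9.83, 8.12 and 9.24 FPKM in glucose, 8.66, 8.46 and 9.14 FPKM in GlcNAc, and 208, 191.0 and 219.7 FPKM in bran plus cellulose. The deletion strain held 18.05, 14.23 and 15.58 FPKM in glucose, 10.95, 11.12 and 10.9 FPKM in GlcNAc, and 455, 406 and 438 FPKM in bran plus cellulose. The wild-type glucose and GlcNAc libraries overlapped, and every other neighbouring pair of groups was separate.

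Cel5B, the other endoglucanase, lay between the cellobiohydrolases and Cel7B on bran plus cellulose. Its wild-type libraries held 6.27, 6.71 and 8.6 FPKM in glucose, 5.56, 6.62 and 4.98 FPKM in GlcNAc, and 789.99, 721 and 663 FPKM in bran plus cellulose. The deletion libraries held 8.32, 9.49 and 9.8 FPKM in glucose, 12.59, 10.34 and 11.6 FPKM in GlcNAc, and 1251, 1147 and 1209 FPKM in bran plus cellulose. The wild-type glucose libraries overlapped with the wild-type GlcNAc libraries below them and with the deletion glucose libraries above them.

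Cel61A was close to 0 on the sugars except in the deletion strain on glucose. The wild type was listed at 0, 0.16 and 0.33 FPKM in glucose and at 0, 0.16 and 0 FPKM in GlcNAc, and the deletion strain at 0, 0 and 0.16 FPKM in GlcNAc. The deletion glucose libraries held 2.04, 2.32 and 4.26 FPKM, all above these. On bran plus cellulose the wild type held 611, 568 and 705 FPKM and the deletion strain 529, 480 and 487 FPKM. This is the gene for which the deletion libraries lay below the wild-type libraries on bran plus cellulose, with no overlap.

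**Figure D1:**
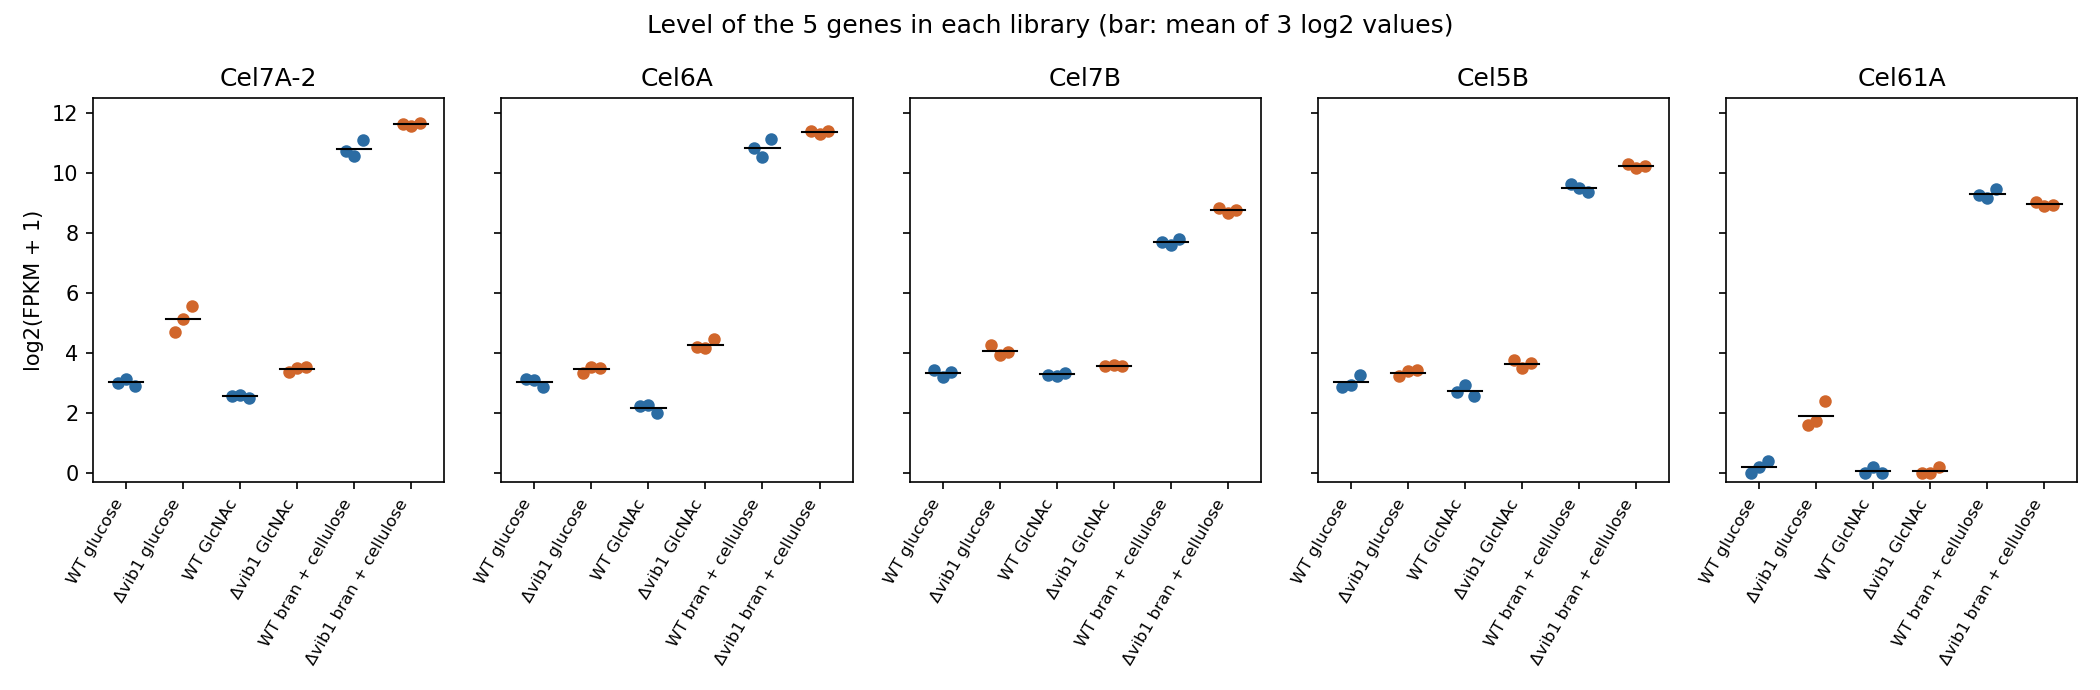
FPKM of the 5 genes in each of the 18 libraries, on a logarithmic axis, by strain and medium, with a point for each library. All bran plus cellulose libraries stand far above the sugar libraries, from 191.0 FPKM upward, while the highest sugar library of the 5 genes is that of Cel7A-2 in the deletion strain on glucose at 45.9 FPKM.

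The 5 genes ranked far higher in the bran plus cellulose libraries than in the sugar libraries. On the sugars their ranks ran from 3042 (Cel7A-2, deletion strain on glucose) to 8451 (Cel61A, wild type on GlcNAc). Ranked by FPKM among the 9176 gene models of a wild-type bran plus cellulose library, Cel7A-2 stood at rank 46 to 102 and Cel6A at rank 45 to 104. In the deletion strain the ranges were 25 to 30 for Cel7A-2 and 34 to 40 for Cel6A. Cel5B stood at rank 234 to 266 in the wild type and at 125 to 145 in the deletion strain, and Cel7B at 742 to 865 and at 353 to 391. Cel61A was the exception, at rank 252 to 306 in the wild type and 309 to 331 in the deletion strain. Together the 5 genes took 0.516% ± 0.0828 (SD, n = 3) of all FPKM in the wild type on bran plus cellulose and 0.780% ± 0.0355 in the deletion strain. Their summed level was 30.8 ± 0.302 FPKM in wild-type glucose, 73.1 ± 11.8 in deletion glucose, 23.0 ± 1.17 in wild-type GlcNAc and 51.0 ± 2.83 in deletion GlcNAc (SD, n = 3 each).

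The first comparison asked how far each gene rose on bran plus cellulose. In the wild type all 5 rose against glucose, in a comparison in which 32.4% of all tested gene models were called higher. Median-ratio rescaling changed the split over all gene models from 2737 higher and 1346 lower to 1927 higher and 1917 lower, and all 5 genes were still called higher. Their median log2 difference was 7.78, against 0.14 over all tested gene models.

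On this scale Cel61A had the largest rise of all 8455 gene models, at 9.08 ± 0.171 on the log2 scale (SE; limma, adjusted p = 1.01e-14). Its size depends on the pseudocount because the glucose libraries were near 0, and it was 11.4 with a pseudocount of 0.1 and 6.93 with a pseudocount of 5. Cel6A was at rank 3 with 7.79 ± 0.130 (limma, adjusted p = 5.61e-15), and Cel7A-2 was at rank 4 with 7.78 ± 0.165 (limma, adjusted p = 2.6e-14). The mean FPKM of these cellobiohydrolases rose 253-fold each. Cel5B followed at rank 8 with 6.48 ± 0.115 and a 101-fold rise of the mean (limma, adjusted p = 5.61e-15). Cel7B was at rank 22 with 4.37 ± 0.0860 and a 22.8-fold rise (limma, adjusted p = 1.4e-14), the smallest of the 5.

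All 5 genes also rose on bran plus cellulose against glucose in the deletion strain, where 28.4% of tested gene models were called higher. The log2 difference was 7.92 for Cel6A, 6.88 for Cel5B and 4.68 for Cel7B, with fold rises of the means of 266, 131 and 27.2. Cel7A-2 had 6.49 (limma, adjusted p = 3.46e-14) and a 90.1-fold rise, from a glucose level that was higher than in the wild type. Cel61A had 7.05 and a 174-fold rise of the mean (limma, adjusted p = 1.93e-14). The ranks among all tested gene models were 19 for Cel6A, 42 for Cel61A, 48 for Cel5B, 58 for Cel7A-2 and 126 for Cel7B.

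Against GlcNAc the same 5 genes rose in both strains. Among all tested gene models 33.2% were called higher on bran plus cellulose than on GlcNAc in the wild type, and 27.8% in the same comparison of the deletion strain. For the wild type 2805 were higher and 2335 lower, which became 3335 and 1816 when each library was scaled to the same total and 2288 and 2962 with quantile normalization. In the deletion strain 2348 higher and 3494 lower became 2918 and 2838 with median-ratio rescaling. The 5 genes were called higher under each of these scalings.

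The wild-type log2 differences from GlcNAc were 9.22 for Cel61A, 8.66 for Cel6A, 8.24 for Cel7A-2, 6.76 for Cel5B and 4.41 for Cel7B, which put the first 3 at ranks 1, 2 and 3 of all tested gene models. In the deletion strain they were 8.89 for Cel61A, 8.16 for Cel7A-2, 7.10 for Cel6A, 6.59 for Cel5B and 5.18 for Cel7B. The comparisons with glucose and with GlcNAc share the bran plus cellulose libraries of a strain, so their values are not independent of each other.

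**Figure D2:**
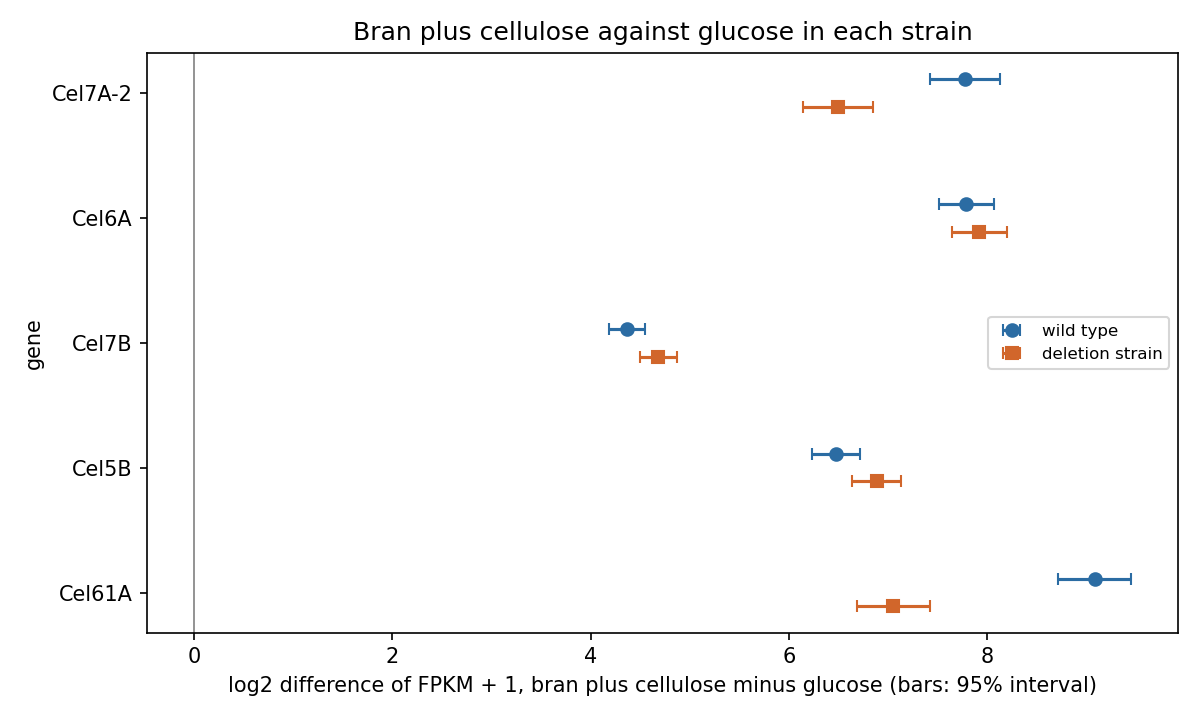
Log2 difference of bran plus cellulose from glucose for each of the 5 genes in each strain, with 95% intervals from the limma model. Cel7B is lowest in both strains, at 4.37 in the wild type and 4.68 in the deletion strain, and Cel61A is highest in the wild type, at 9.08.

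The sugars were then compared with each other. In the wild type Cel6A fell on GlcNAc by 0.87 on the log2 scale (SE 0.130; limma, adjusted p = 4.26e-05), from 7.28 ± 0.826 to 3.53 ± 0.444 FPKM (SD, n = 3 each). Cel7A-2 fell by 0.46 (SE 0.165; limma, adjusted p = 0.0269) and Cel5B by 0.28 (SE 0.115; limma, adjusted p = 0.0456). These 3 of the 5 were called lower, beside 26.0% of all tested gene models. The split over all gene models, 2792 higher and 2200 lower, became 2250 and 2591 when each library was scaled to the same total. Cel7B differed by -0.04 with a 95% interval of -0.23 to 0.14, and Cel61A by -0.14 with an interval of -0.50 to 0.23, and neither was called.

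The calls of Cel7A-2 and Cel5B in that comparison were not stable. Cel7A-2 was no longer called without wild-type glucose replicate 1 (limma, adjusted p = 0.0517) or 2 (0.0927), or without wild-type GlcNAc replicate 1 (0.0593) or 3 (0.0696). With a pseudocount of 5 its difference shrank to -0.29 (limma, adjusted p = 0.114), and with quantile normalization it was -0.46 (limma, adjusted p = 0.0593). Cel5B lost its call in 10 of the 18 fits that left out a single library, with the highest adjusted p, 0.233 by limma, without wild-type glucose replicate 3. That library held the highest of its 3 glucose values, and without it the difference was -0.16. Some of the fits that lost the call left out a library of a group not compared. There the difference stayed at -0.28 and the limma adjusted p was at most 0.0553. The call of Cel5B was also lost with a pseudocount of 5 (limma, adjusted p = 0.0855) and with only the compared groups (limma, adjusted p = 0.126). Array weights and limma without trend and robust lost it too.

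In the deletion strain the 5 genes went in opposite directions between the sugars. On GlcNAc Cel6A rose by 0.82 ± 0.130 (SE; limma, adjusted p = 4.78e-05) and Cel5B by 0.29 ± 0.115 (SE; limma, adjusted p = 0.0335), where 41.8% of all tested gene models were called higher. Cel7A-2 fell by 1.66 (SE 0.165; limma, adjusted p = 3.5e-07), Cel7B by 0.49 (SE 0.0860; limma, adjusted p = 0.000114) and Cel61A by 1.84 (SE 0.171; limma, adjusted p = 1.65e-07), where 27.0% were called lower. The Cel61A difference was -4.36 with a pseudocount of 0.1 and -0.63 with a pseudocount of 5, both still called. The rise of Cel5B was not called with median-ratio rescaling, at 0.18 (limma, adjusted p = 0.172), with quantile normalization, at 0.22 (limma, adjusted p = 0.108), or without deletion glucose replicate 1 or 2 or deletion GlcNAc replicate 1 or 3, with limma adjusted p of up to 0.128.

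The series' title names the expression of cellulolytic genes as a subject of the study, and the comparison of strains on bran plus cellulose addresses it for these transcripts. The values are RNA levels and hold no measure of protein, secretion or activity. Transcripts of the 4 hydrolases were higher in the deletion strain. Cel7B rose from 206 ± 14.4 to 433 ± 24.6 FPKM (SD, n = 3 each), Cel7A-2 from 1802 ± 361 to 3166 ± 118, Cel5B from 725 ± 63.5 to 1202 ± 52.1, and Cel6A from 1843 ± 366 to 2653 ± 106. For each of them all 3 deletion libraries lay above all 3 wild-type libraries. The share of all tested gene models whose libraries separate in this way is not given here, for this or any other comparison. The transcript of the oxidative enzyme Cel61A had a mean of 628 ± 70.0 FPKM in the wild type and 499 ± 26.5 FPKM in the deletion strain.

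The log2 differences were 1.07 ± 0.0860 for Cel7B (SE; limma, adjusted p = 5.27e-07), 0.83 ± 0.165 for Cel7A-2 (limma, adjusted p = 0.00194), 0.73 ± 0.115 for Cel5B (limma, adjusted p = 0.000298) and 0.54 ± 0.130 for Cel6A (limma, adjusted p = 0.0066). As ratios of the means these were 2.10, 1.76, 1.66 and 1.44. Beside these 4 of the 5 genes, 13.2% of all tested gene models were called higher, and the numbers of higher and lower gene models were similar, 1114 and 1144. The median log2 difference was 0.73 over the 5 genes and 0.01 over all tested gene models. Cel61A differed by -0.33 with a 95% interval of -0.69 to 0.04 and was not called (limma, adjusted p = 0.172), although its strains did not overlap. With a pseudocount of 5 the difference was also -0.33 and was called (limma, adjusted p = 0.0178). The call of Cel6A was lost when only the compared groups were fitted (limma, adjusted p = 0.0663).

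Wild-type replicate 3 was the highest of its group for Cel7A-2, Cel6A, Cel7B and Cel61A and the lowest for Cel5B. Without it the strain difference was 0.99 for Cel7A-2, 0.69 for Cel6A, 1.11 for Cel7B and 0.67 for Cel5B, all called by limma, and -0.24 for Cel61A, not called. Leaving out wild-type replicate 2, the lowest for Cel7A-2 and Cel6A, gave 0.72 for Cel7A-2 (limma, adjusted p = 0.0105) and 0.40 for Cel6A (limma, adjusted p = 0.0308). The same 4 genes were called in each of the 18 fits that left out a single library. Fits without a library of another medium could not move these differences, only their adjusted p.

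**Figure D3:**
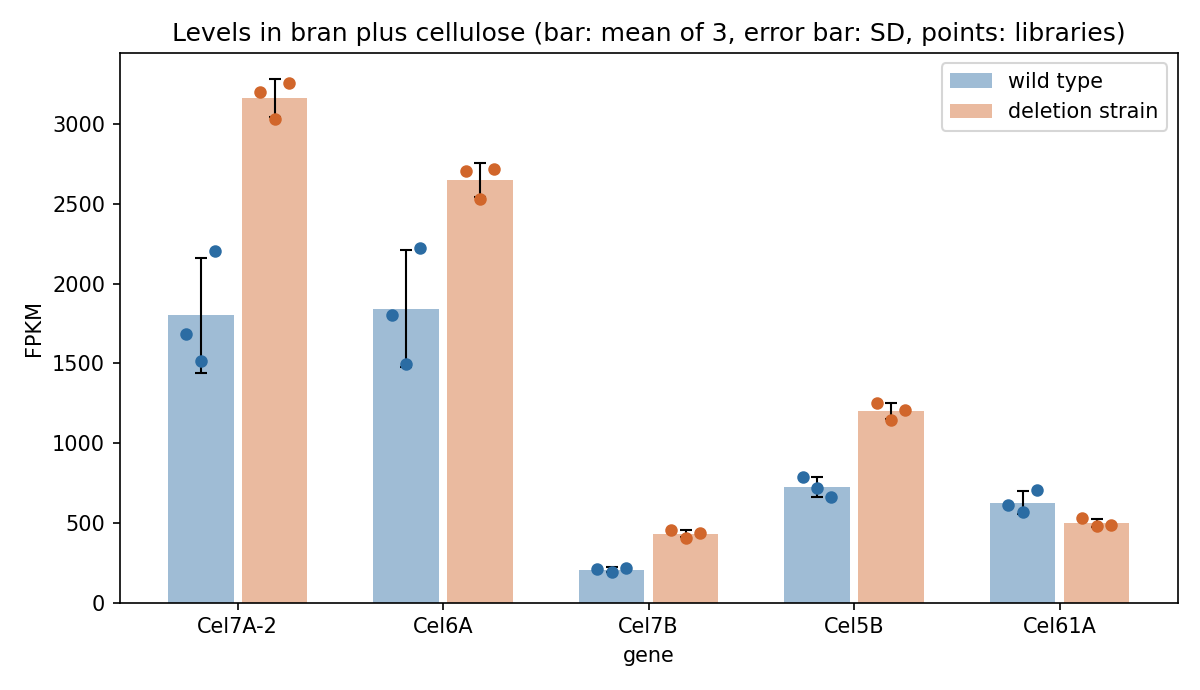
FPKM of the 5 genes in the 3 wild-type and 3 deletion libraries on bran plus cellulose, with a point for each library and the group mean. The deletion libraries lie above the wild-type libraries for Cel7A-2, Cel6A, Cel7B and Cel5B, and below them for Cel61A at 480 to 529 against 568 to 705 FPKM.

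The proportions of the 5 transcripts on bran plus cellulose are a further description of the same libraries. Cel61A made up 12.1% ± 0.480 (SD, n = 3) of their summed FPKM in the wild type and 6.27% ± 0.247 in the deletion strain. Cel7A-2 made up 34.5% ± 1.93 and 39.8% ± 0.438, Cel6A 35.2% ± 1.83 and 33.4% ± 0.148, Cel5B 14.2% ± 2.76 and 15.1% ± 0.232, and Cel7B 4.0% ± 0.312 and 5.44% ± 0.124. These shares rest on FPKM, so they depend on the gene model lengths the authors used.

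A ratio of 2 genes within a library does not depend on how that library was scaled. The ratio of Cel61A to Cel7A-2 was 0.363, 0.375 and 0.319 in the wild-type libraries and 0.165, 0.158 and 0.149 in the deletion libraries, a log2 difference of -1.16 (exact permutation test, two-sided p = 0.1). The ratio of Cel6A to Cel7A-2 was 1.07, 0.988 and 1.01 in the wild type and 0.845, 0.834 and 0.834 in the deletion strain, which differ by -0.29 on the log2 scale (exact permutation test, two-sided p = 0.1). Both ratios were thus lower in all deletion libraries, and 0.1 is the smallest p that 3 against 3 libraries can give. The ratio of Cel7B to Cel7A-2 was higher by 0.24 without overlap (exact permutation test, two-sided p = 0.1). For Cel5B the ratios overlapped, with 0.469, 0.476 and 0.300 in the wild type and 0.391, 0.378 and 0.371 in the deletion strain (exact permutation test, two-sided p = 0.8).

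On glucose, where these genes are typically low, all 5 were higher in the deletion strain, in a comparison in which 42.1% of all tested gene models were called higher. The median over all tested gene models was shifted by 0.18, and 3556 higher and 1924 lower gene models became 2593 and 2625 with median-ratio rescaling. For 3 genes the difference was well above that shift. Cel7A-2 rose from 7.13 ± 0.656 to 35.1 ± 10.4 FPKM (SD, n = 3 each), 2.11 ± 0.165 higher on the log2 scale (SE; limma, adjusted p = 3.42e-08), and 1.93 with median-ratio rescaling. Cel7B rose from 9.06 ± 0.869 to 16.0 ± 1.94 FPKM, by 0.75 ± 0.0860 (SE; limma, adjusted p = 2.11e-06), and by 0.56 with median-ratio rescaling. Cel61A rose by 1.70 ± 0.171 (SE; limma, adjusted p = 5.24e-07), or by 3.66 with a pseudocount of 0.1 and 0.60 with a pseudocount of 5, all called.

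The other 2 differences on glucose were small. Cel6A rose by 0.41 ± 0.130 (SE; limma, adjusted p = 0.0123) and Cel5B by 0.32 ± 0.115 (SE; limma, adjusted p = 0.022). With median-ratio rescaling these were 0.23 (limma, adjusted p = 0.179) and 0.14 (limma, adjusted p = 0.284), and neither was called. The call of Cel6A was also lost without wild-type glucose replicate 3 (limma, adjusted p = 0.0604). That of Cel5B was lost without wild-type glucose replicate 1 (limma, adjusted p = 0.104) or 2 (0.0746) and without deletion glucose replicate 2 (0.0624) or 3 (0.0734). Cel7A-2 alone made up 47.3% ± 6.69 (SD, n = 3) of the summed FPKM of the 5 genes in the deletion strain on glucose.

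On GlcNAc the transcripts of the 4 hydrolases were higher in the deletion strain and that of Cel61A was near 0 in both strains. In this comparison 44.8% of all tested gene models were called higher, with a median shift of 0.20. The 3789 higher and 2513 lower gene models became 3061 and 3211 with median-ratio rescaling. Cel6A had the largest difference of the 5 here, from 3.53 ± 0.444 to 18.4 ± 2.27 FPKM (SD, n = 3 each), 2.10 ± 0.130 higher on the log2 scale (SE; limma, adjusted p = 1.39e-09). Cel7A-2 rose from 4.91 ± 0.190 to 10.1 ± 0.596 FPKM, by 0.91 ± 0.165 (SE; limma, adjusted p = 0.000142), and Cel5B from 5.72 ± 0.832 to 11.5 ± 1.13 FPKM, by 0.90 ± 0.115 (SE; limma, adjusted p = 4.09e-06). With median-ratio rescaling the 3 differences were 1.87 for Cel6A, 0.69 for Cel7A-2 and 0.68 for Cel5B, all called.

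Cel7B was higher by 0.30 ± 0.0860 on GlcNAc (SE; limma, adjusted p = 0.00556), from 8.75 ± 0.349 to 10.99 ± 0.115 FPKM (SD, n = 3 each). That difference was close to the shift of all gene models, and it was 0.07 with median-ratio rescaling (limma, adjusted p = 0.475) and 0.16 with quantile normalization (limma, adjusted p = 0.105), not called in either. The Cel61A difference was 0 with a 95% interval of -0.36 to 0.36, at values of at most 0.16 FPKM.

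**Figure D4:**
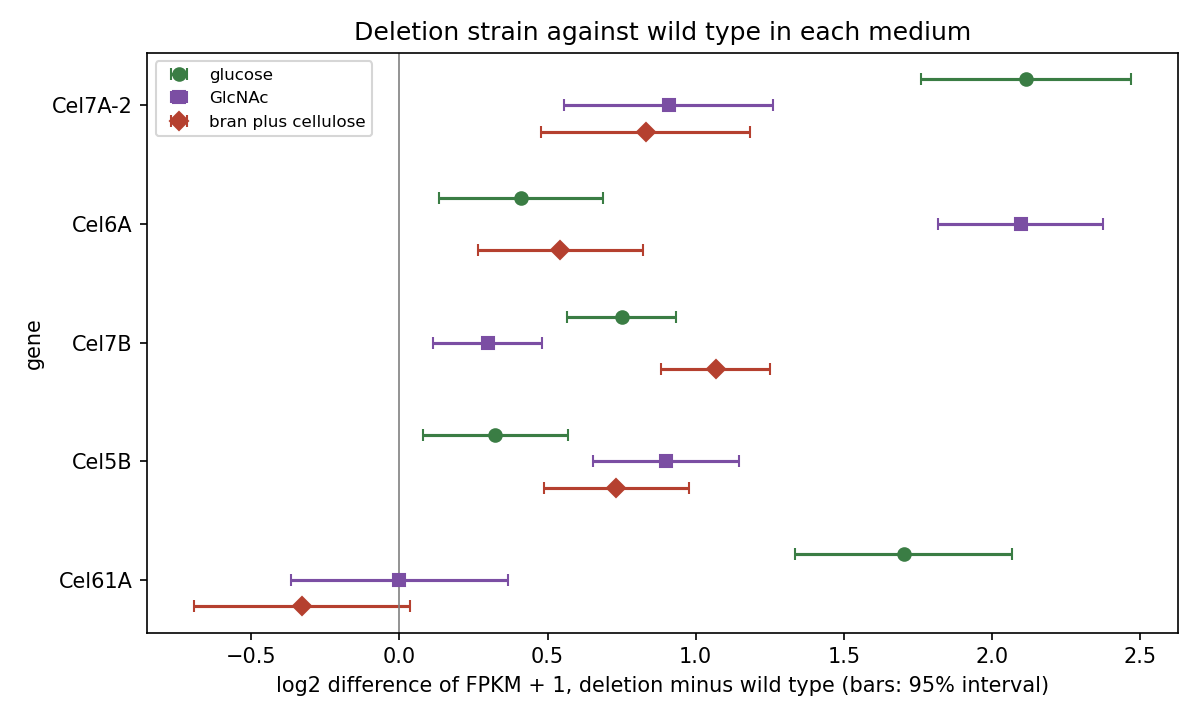
Log2 difference of the deletion strain from the wild type for each of the 5 genes in each medium, with 95% intervals from the limma model. Cel7A-2 is highest in glucose at 2.11, Cel6A in GlcNAc at 2.10 and Cel7B in bran plus cellulose at 1.07, while Cel61A runs from 1.70 in glucose to -0.33 in bran plus cellulose.

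Whether the effect of the deletion differed between media was tested in the same model. Such differences were common among all tested gene models, of which 59.3% were called in either direction between GlcNAc and glucose, 52.3% between bran plus cellulose and glucose, and 67.0% between bran plus cellulose and GlcNAc. Of the 5 genes 5, 4 and 2 were called in these tests. Between GlcNAc and glucose the effect differed for all 5 genes. The effect was larger on GlcNAc by 1.69 ± 0.184 for Cel6A (SE; limma, adjusted p = 1.66e-06) and by 0.58 ± 0.162 for Cel5B (SE; limma, adjusted p = 0.00675), where 32.3% of all tested gene models had a higher effect. For Cel7A-2 the difference of effects was -1.21 ± 0.234 (SE; limma, adjusted p = 0.000425), for Cel7B -0.45 ± 0.122 (SE; limma, adjusted p = 0.00504) and for Cel61A -1.70 ± 0.241 (SE; limma, adjusted p = 2.42e-05), where 27.0% had a lower effect. The Cel61A value was -3.66 with a pseudocount of 0.1 and -0.60 with a pseudocount of 5. The cellobiohydrolases Cel7A-2 and Cel6A thus differed in opposite directions, Cel7A-2 with the larger deletion effect on glucose and Cel6A with the larger on GlcNAc.

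Between bran plus cellulose and glucose the deletion effect was lower on bran plus cellulose for Cel7A-2, by -1.28 ± 0.234 (SE; limma, adjusted p = 0.000325), and for Cel61A, by -2.03 ± 0.241 (SE; limma, adjusted p = 6.36e-06). Of all tested gene models 34.1% had a lower effect there. This is the same quantity as the smaller rise of Cel7A-2 and Cel61A on bran plus cellulose in the deletion strain. The Cel61A value was -3.99 with a pseudocount of 0.1 and -0.92 with a pseudocount of 5. The effect was higher for Cel7B, by 0.32 ± 0.122 (SE; limma, adjusted p = 0.0401), and for Cel5B, by 0.41 ± 0.162 (SE; limma, adjusted p = 0.0465), where 18.2% had a higher effect. The split of 1543 higher and 2880 lower gene models became 2135 and 2107 with median-ratio rescaling, under which Cel7A-2 had -1.11, Cel61A -1.99, Cel7B 0.49 and Cel5B 0.58, all called. Scaled to the same total, Cel7B had 0.18 (limma, adjusted p = 0.231) and Cel5B 0.27 (limma, adjusted p = 0.162), not called. Of the 18 fits that left out a single library, 9 lost the call of Cel7B, with limma adjusted p of up to 0.108 without deletion glucose replicate 2, and 10 lost that of Cel5B, up to 0.125 without wild-type glucose replicate 3. The fits that lost a call include some without a GlcNAc library, which left the differences themselves unmoved. For Cel6A the difference of effects was 0.13 with a 95% interval of -0.26 to 0.53, not called.

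Between bran plus cellulose and GlcNAc the deletion effect was lower on bran plus cellulose for Cel6A, by -1.55 ± 0.184 (SE; limma, adjusted p = 2.99e-06), where 40.3% of all tested gene models had a lower effect. It was higher for Cel7B, by 0.77 ± 0.122 (SE; limma, adjusted p = 5.35e-05), where 26.7% had a higher effect. With median-ratio rescaling 2260 higher and 3408 lower gene models became 2864 and 2750, and Cel6A had -1.34 and Cel7B 0.98, both called. With a pseudocount of 5 the value of Cel6A was -0.91, also called. Cel7A-2 with -0.08, Cel5B with -0.17 and Cel61A with -0.33 were not called. The 3 tests of a difference between media share libraries and are not independent of each other.

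The gene models whose profile over the 18 libraries was most like that of each gene were found by the root mean square difference of log2(FPKM + 1) after taking off each gene's own mean. The measure is a description, and all profiles share libraries and the same step to bran plus cellulose. For Cel7A-2 the closest was PDE_00579 at 0.564, then Cel61A at 0.624, PDE_01261 at 0.709 and Cel6A at 0.756. For Cel6A the closest was Cel5B at 0.687, then Cel7A-2. Cel61A was closest to Cel7A-2, with PDE_00579 next at 0.759. Cel5B was closest to PDE_02102 at 0.497 and PDE_01261 at 0.583, with Cel6A and Cel7A-2 at ranks 3 and 4. The order depended on the pseudocount. With a pseudocount of 5 Cel61A and Cel5B were closest to each other, up from rank 4 and rank 11, and Cel7A-2 went to rank 3 for Cel61A. Cel6A was then closest to Cel7A-2, with Cel5B at rank 3, while PDE_00579 was still the closest to Cel7A-2.

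For Cel7B other gene models were closer than any of the other 4 genes. The closest were PDE_08094 at 0.375 and PDE_06330 at 0.388, and the nearest of the other 4 genes was Cel5B, at rank 19 with 0.999. Cel7A-2, Cel6A and Cel61A stood at ranks 83, 111 and 449. With a pseudocount of 5 PDE_08094 and PDE_06330 went to ranks 6 and 10, Cel5B stood at rank 20, and Cel61A moved to rank 38. On the sugars the group means were 0.03 to 0.32 FPKM for PDE_06330 and 2.02 to 3.10 for PDE_08094, below 8.75 to 15.95 for Cel7B. On bran plus cellulose the wild type and the deletion strain had 32.3 and 36.7 for PDE_06330, and 51.4 and 77.9 for PDE_08094. The scale of log2(FPKM + 1) understates a rise from values this low, so the closeness to Cel7B depends on the pseudocount. The group means of PDE_00579, which has no gene name here, were 3.41 FPKM in wild-type glucose, 28.0 in deletion glucose, 6.45 and 8.38 in wild-type and deletion GlcNAc, and 1555 and 1584 on bran plus cellulose. Like Cel7A-2, for likeness to which it was picked, it had a higher glucose level in the deletion strain and the step to bran plus cellulose. Its means on bran plus cellulose were close in the strains, where those of Cel7A-2 were 1802 and 3166 FPKM. In the wild type its mean was higher on GlcNAc than on glucose, where that of Cel7A-2 was lower, at 4.91 and 7.13 FPKM.

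Of the 30 gene models within 3 locus tag numbers of the 5 genes, 27 were tested, and between the strains on bran plus cellulose 4 were higher and 6 lower, with a median log2 difference of -0.02. Over all tested gene models 13.2% were called higher and 13.5% lower in this comparison. The numbers are an order of names, and distances on the chromosome were not used here. The largest called rise was that of PDE_07928, the number before Cel7B, with 1.04 (limma, adjusted p = 1.71e-05). It was also higher on bran plus cellulose than on glucose in the wild type, by 5.76 (limma, adjusted p = 1.85e-14). The largest called fall was that of PDE_07927, a further number below, with -5.22 (limma, adjusted p = 4.02e-12). PDE_07927 was lower in the deletion strain on glucose and GlcNAc too, by -4.80 and -4.41.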

How the data were processed

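Per the labels' protocols, these are tag libraries: cDNA made on oligo(dT) beads was digested with NlaIII, and MmeI then freed a short tag per site for Illumina sequencing. The authors deposited the values as FPKM, per the file headers. For the aligner, the quantifier, the genome build, the gene lengths and the handling of tags shared by related genes, the entry is: not given in the sources used here. Division by gene length bears on comparisons between genes, and not on those of a gene between libraries.

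From the deposited FPKM, log2(FPKM + 1) was computed for gene models that reached 1 FPKM in 3 or more libraries (8455 tested, 721 left out). A model of 6 group means was fitted to the 18 libraries with limma 3.58.1 in R 4.3.3 (trend and robust, 12 residual degrees of freedom), with 12 two-sided comparisons, each adjusted over all gene models, and no replicate block. The 6 groups share the spread estimate of a gene, so p-values of Cel61A may be too large or too small for a single medium. Its log2 deviations from the group mean ran from -0.31 to 0.48 in deletion glucose and from -0.14 to 0.17 in wild-type bran plus cellulose. Without deletion glucose replicate 3 its strain difference on bran plus cellulose was unchanged at -0.33, with a limma adjusted p of 0.0502 against 0.172. The code was tested on simulated data. Tables, exact permutation tests and plots used pandas 2.3.3, numpy 2.4.6, scipy 1.17.1 and matplotlib 3.10.9.

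Groups were taken from the sample titles and labels. The 5 genes, the lists and the tests were chosen with earlier results of these data known. All 5 genes are named in every comparison. The other named gene models are the 2 most similar to each gene that are not among the 5, and, among neighbours by locus tag number (3 on each side), the largest called differences on bran plus cellulose. Ratios to Cel7A-2 were tested where both genes had at least 10 FPKM in all 6 libraries. Alternatives were pseudocounts of 0.1 and 5, no filter and a filter at 10 FPKM, 3 other scalings, other settings of limma, array weights, only the groups compared, a replicate block, and leaving out each library. No sequence is printed, because the reference table at hand (assembly ASM172317v3) held none of the locus tags.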

Additional observations from a re-analysis of the deposited data

Results flagged for a closer look

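The effect of the vib1 deletion (deletion minus wild type, log2(FPKM + 1)) differed between media for these genes in 11 of 15 tests of the difference itself in limma, adjusted over all 8455 gene models. Over all tested gene models 59.3% were called between GlcNAc and glucose, 52.3% between bran plus cellulose and glucose, and 67.0% between bran plus cellulose and GlcNAc, against 5, 4 and 2 of these 5 genes, so the count of calls does not set the 5 genes apart.

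Between GlcNAc and glucose the difference of effects was -1.21 ± 0.234 (SE) for Cel7A-2, 1.69 ± 0.184 for Cel6A, -0.45 ± 0.122 for Cel7B, 0.58 ± 0.162 for Cel5B and -1.70 ± 0.241 for Cel61A. Cel7A-2 was higher in 3 of 3 deletion libraries on both sugars, by 2.11 on glucose and 0.91 on GlcNAc. Cel6A was also higher in 3 of 3 on both, by 0.41 and 2.10. The share of all tested gene models that separate in this way is not given here.

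Between bran plus cellulose and glucose it was -1.28 ± 0.234 for Cel7A-2, -2.03 ± 0.241 for Cel61A, 0.32 ± 0.122 for Cel7B and 0.41 ± 0.162 for Cel5B. The last 2 had limma adjusted p of 0.0401 and 0.0465 and were lost when single libraries were left out.

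Between bran plus cellulose and GlcNAc it was -1.55 ± 0.184 for Cel6A and 0.77 ± 0.122 for Cel7B.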

How the results depend on the processing

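Of 60 results (5 genes in 12 comparisons), 45 kept their direction and their side of the threshold under all 29 alternatives, and of 1740 alternative values 1656 did so. In many of these alternatives the difference itself could not move. They left out a library of a group not compared, or changed only the filter, the trend and robust settings, the groups fitted or the block. There only the adjusted p could change. The 5 genes' rise on bran plus cellulose was called in both strains under every alternative. Fitting only the compared groups called 1218 of all gene models between strains on bran plus cellulose, against 2258. On glucose 3 of the 5 genes were called between strains with median-ratio rescaling and 3 with quantile normalization, against 5. Between the sugars in the wild type 1 was called with a pseudocount of 5, and 1 to 3 when single libraries were left out (1 without wild-type glucose replicate 2 or wild-type GlcNAc replicate 1 or 3). For the difference of effects between bran plus cellulose and glucose, 2 were called with a pseudocount of 0.1, the same total or only the compared groups, and 2 to 4 when single libraries were left out. Signs turned only for differences that were not called. Cel7B between the sugars in the wild type ranged from -0.111 to 0.0127 without single libraries. Cel6A, bran plus cellulose against glucose effects, was -0.0026 with the same total and -0.0069 to 0.28 without single libraries. For bran plus cellulose against GlcNAc effects, Cel7A-2 was 0.22 (pseudocount 5), 0.13 (median-ratio), 0.15 (quantile), 0.0993 (array weights) and -0.194 to 0.0769 without single libraries. There Cel5B was 0.11 (pseudocount 5), 0.0438 (median-ratio) and 0.0365 (quantile), and it was called at -0.39 with the same total. Cel61A was called there at -0.33 with a pseudocount of 5. The ratio of Cel5B to Cel7A-2 ranged from -0.32 to 0.016 without single libraries. The cause of these shifts was not tested. In 0 of 15 pairs of groups did all 3 same-numbered pairs of libraries correlate above 0.1, and single values ran from -0.107 to 0.181. With 3 libraries per group this cannot decide what libraries of the same number share. With the replicate block Cel5B lost its call between the sugars in the wild type (-0.28, limma adjusted p = 0.0646) and in the effects of bran plus cellulose against glucose (0.41, limma adjusted p = 0.0661), and no other call changed. The number of reads behind the values of Cel61A on the sugars is unknown, which limits what those low values can show.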
